A study of Homo sapiens with 6 samples.

Results

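The 10 genes described here are the 8 E2F transcription factor genes, E2F1 to E2F8, and RBL1 and RBL2, which encode pocket proteins that bind E2Fs. They were chosen by gene symbol from the 58825 genes of the deposited table, and each symbol matched 1 row. RNA was profiled in PANC-1, an established human pancreatic ductal carcinoma line. CMR cells received 8 µM of a compound labelled CMR for 48 h, with 3 libraries. CON cells, with 3 libraries, are labelled control only; their vehicle and culture time, and what CMR stands for, are not given in the sources used here. All 6 libraries come from poly(A)-selected RNA of this single line, in medium with serum. Separate cultures are not stated for the libraries of a group, so p-values reflect the spread among these 6 libraries and that spread may be technical.

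E2F proteins bind promoters of genes needed for entry into S phase. E2F1, E2F2 and E2F3 are known as activators, E2F4, E2F5 and E2F6 as canonical repressors, and E2F7 and E2F8 as atypical repressors that bind DNA without a DP partner and damp activator output late in the cycle. RBL1 and RBL2 recruit repressive complexes to E2F sites, mainly through E2F4 and E2F5, until cyclin-dependent kinases phosphorylate them; RBL2 is the form known from resting cells and RBL1 the form known from cycling cells. Several members, among them E2F1, E2F2, E2F3, E2F7, E2F8 and RBL1, are themselves known E2F target genes, while E2F4 and RBL2 transcripts are known to vary little over the cycle.

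The promoter stretches that carry the E2F consensus letters are shown because members of this family are known to regulate each other's transcription. Promoter windows of 300 bases, ending 50 bases after each annotated start, were taken from RefSeq on build GRCh38.p14, and 8 of the 10 members matched while E2F5 and E2F8 were not matched. E2F3 and RBL2 have 2 windows each, and a position is counted from the start of the window that holds it. The consensus was searched on both strands as TTTCCCGC, TTTCGCGC, TTTGCCGC or TTTGGCGC. The shorter cores GCGGGAA and GCGCGAA were searched too, and lie inside the reverse strand of the first and second of these forms. Capitals mark matched letters, and each stretch is written 5′ to 3′ in the direction of the gene, with 10 bases on either side of the matches.
E2F1 promoter, chr20:33686388-33686428, minus strand: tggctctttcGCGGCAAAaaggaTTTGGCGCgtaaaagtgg
E2F2 promoter, chr1:23531258-23531285, minus strand: cggcacgacgTTTGGCGCtaaaaaaaaa
E2F3 promoter, chr6:20401816-20401843, plus strand: tgaaaagccgGCGGGAAAtccgagtttc
RBL1 promoter, chr20:37095996-37096033, minus strand: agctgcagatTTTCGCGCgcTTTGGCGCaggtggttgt
E2F6 promoter, chr2:11466131-11466157, minus strand: tactgcgcatGCGGGAAgatggcgggc

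The consensus stood in the windows of E2F1, E2F2, E2F3 and RBL1, and not in those of E2F4, E2F6, E2F7 or RBL2. It was in 3.31% of all 35116 windows, and in 3.99% of all 27305 genes with a window. E2F1 and RBL1 each held 2 matches, at positions -33 and -20 from the start in E2F1 and at -26 and -16 in RBL1. In E2F2 the match began at -42 and in E2F3 at -53. The core GCGGGAA, in 6.55% of all windows, was found in E2F3, within its consensus match, and in E2F6, where it began 15 bases into the transcript. The core GCGCGAA, in 2.24% of windows, was found in RBL1 only among the 8 matched members. TTTGAA, a form of the cell cycle homology region bound by the MuvB complex and in 15.2% of windows, was in E2F3 and RBL2, and the form TTCGAA, in 1.45% of windows, was in none of the 8. Counted by gene, the shares were 7.82% for GCGGGAA, 2.75% for GCGCGAA, 18.2% for TTTGAA and 1.82% for TTCGAA. All of the above are matches of letters, and no binding was measured.

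**Figure D1:**
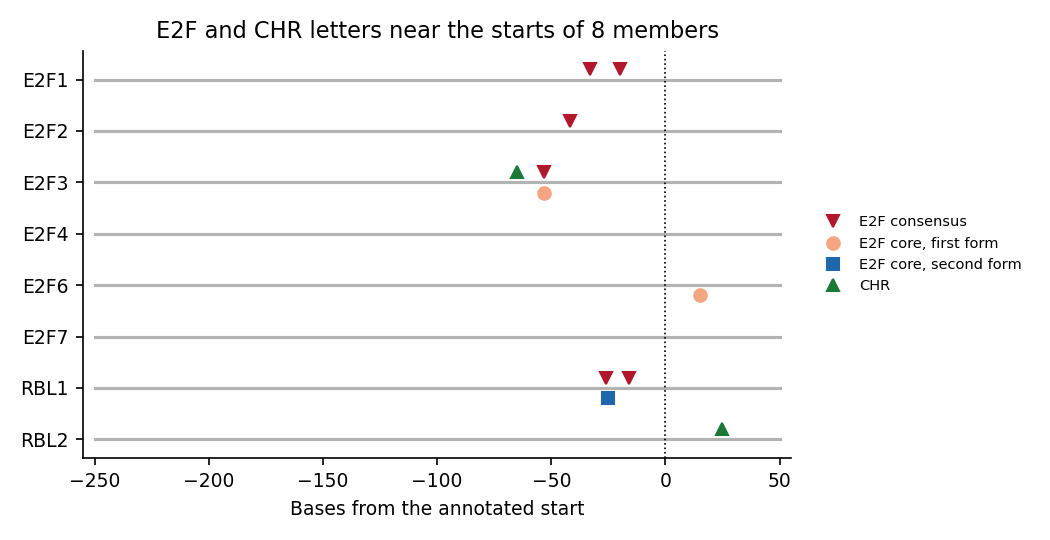
Positions of matched letters in the promoter windows of the 8 matched members, in bases from the annotated start (dotted line); triangles pointing down mark the E2F consensus, circles and squares the shorter cores, and triangles pointing up the cell cycle homology region (CHR). The consensus matches of E2F1, E2F2, E2F3 and RBL1 lie upstream of the start, between -53 and -16.

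The libraries held between 66460535 and 70129221 counts in CMR cells and between 51147268 and 63811430 in CON cells, and the lowest count of any member was 95, for E2F2 in CMR replicate 3. Of the 6 genes listed as markers of the ductal carcinoma line, KRT7, KRT8, KRT18, KRT19, EPCAM and VIM, all were detected. VIM is not particular to ductal cells. KRT7 was low, at 0.664 FPKM in CMR cells and 1.18 FPKM in CON cells. FPKM is the authors' value, a count per gene length and sequencing depth, and it is the scale on which levels of different genes are compared here. The summed level of the 6 was 339 to 540 FPKM in CMR cells and 1227 to 1340 FPKM in CON cells. VIM alone averaged 226.6 FPKM in CMR cells and 625.8 FPKM in CON cells. CMR replicate 3 had the lowest sum. By the edgeR test described below, 5 of the 6 were called lower, where 18.1% of all tested genes were. The KRT7 call was narrow (edgeR adjusted p = 0.0474). The part of the difference in these 6 genes in the results on the members was not tested. The 11 markers of immune, endothelial, stromal, islet, acinar and fat cells summed to 0.15 to 0.29 FPKM in CMR cells and 0.22 to 0.40 FPKM in CON cells, with CD3E, INS and CPA1 at 0 counts in all libraries. Of the 4 tested, ACTA2 was called lower and PRSS1 higher, beside 18.1% lower and 20.5% higher over all tested genes. ACTA2 averaged 0.00758 FPKM in CMR cells and 0.192 FPKM in CON cells. PRSS1 averaged 0.0948 FPKM in CMR cells and had no count in CON cells. In bulk RNA, fewer cells of a type and less RNA per cell cannot be told apart.

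All 10 members passed the filter on low counts and were tested. A gene was called if its edgeR quasi-likelihood p, adjusted by Benjamini-Hochberg over the 19200 genes tested, was under 0.05. E2F1, E2F2, E2F8 and RBL1 fell, by 3.37-fold to 7.38-fold, while E2F4 and E2F6 rose by 1.38-fold and 1.24-fold. E2F3, E2F5, E2F7 and RBL2 were not called. So 6 of 10 members were called, against 38.6% of all genes tested. The 4 called lower compare with 18.1% of all genes, and the 2 called higher with 20.5%. E2F1, E2F2 and E2F8 were called lower by at least 4-fold, against 1.99% of all genes tested. The 4-fold cut was not set in advance, and RBL1 lay outside it at 3.37-fold. Normalised CPM, the count scaled by edgeR to library size, did not overlap between CMR and CON in 8 of 10 members, against 53.9% of all genes tested. Of these 8, 5 were lower (background 26.6%) and 3 were higher (background 27.3%). Over all genes tested the median log2 fold change was -0.01.

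**Figure D2:**
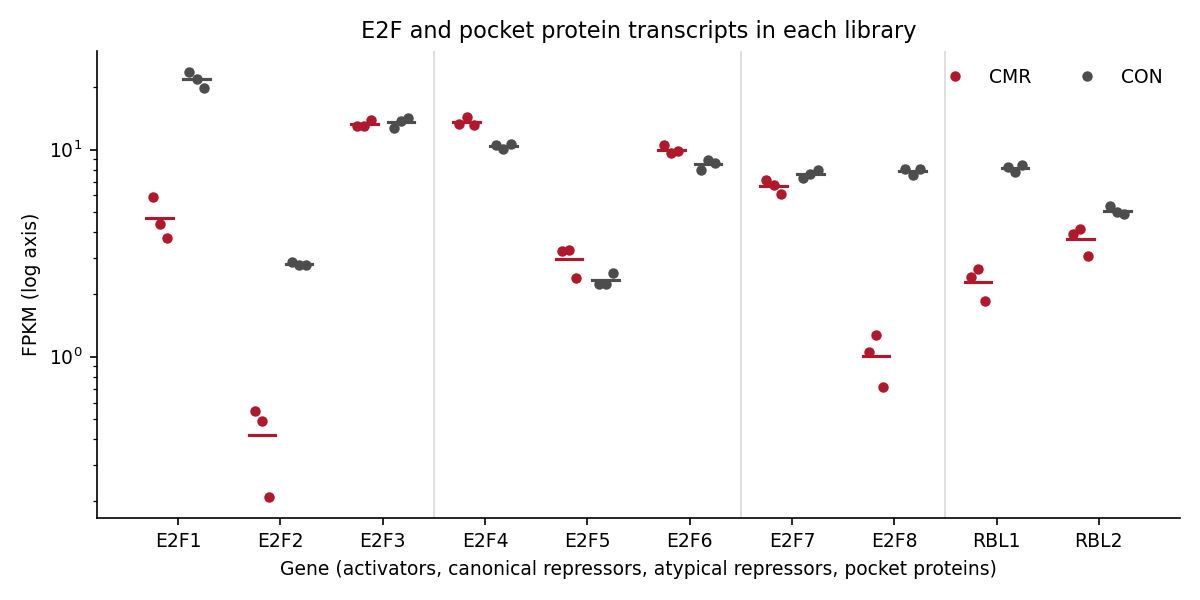
FPKM of the 10 members in each library on a log axis, with CMR libraries in red to the left of CON libraries in grey for each gene; points are libraries and lines are means of 3. E2F1, E2F2, E2F8 and RBL1 lie lower in all CMR libraries than in any CON library, E2F4 lies higher, and E2F3 overlaps.

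Among the activators, E2F1 and E2F2 fell and E2F3 was not called. E2F1, the founding member of the family, had 5.92, 4.36 and 3.73 FPKM in CMR libraries, against 23.7, 21.98 and 19.9 FPKM in CON libraries. Every CMR library lay below every CON library, and the levels averaged 4.67 ± 1.12 FPKM in CMR cells and 21.9 ± 1.89 FPKM in CON cells (SD, n = 3 each). The log2 fold change on the count scale was -2.15 ± 0.18 (SE; edgeR adjusted p = 0.000216), and 2.41% of all tested genes had a value that low or lower. E2F1 (ENSG00000101412) spans 33675477 to 33686385 of chromosome 20 in the table's GRCh38 coordinates, on the minus strand.

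E2F2, the least abundant activator, had 0.548, 0.490 and 0.211 FPKM in CMR libraries, against 2.85, 2.78 and 2.77 FPKM in CON libraries. Its CON libraries were nearly equal, and CMR replicate 3 was less than the other CMR libraries. The coefficient of variation of its CPM was 41.9% in CMR cells and 1.54% in CON cells. E2F2 fell by 2.67 on the log2 scale (SE 0.33; edgeR adjusted p = 0.000988), and it fell by 2.37 without CMR replicate 3. The gene (ENSG00000007968) spans 23506438 to 23531233 on the minus strand of chromosome 1.

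E2F3, an activator whose gene also makes a shorter isoform described as repressive, had 13.03, 12.96 and 13.9 FPKM in CMR libraries and 12.6, 13.8 and 14.2 FPKM in CON libraries. The groups overlapped, and the log2 fold change was 0.05 with a 95% interval from -0.16 to 0.26 (edgeR adjusted p = 0.686). Its direction was not stable: with upper-quartile scaling, library totals or FPKM values the change was -0.08 to -0.02. The table counts the gene as a whole, so its isoforms were not resolved. E2F3 (ENSG00000112242) spans 20401879 to 20493714 on the plus strand of chromosome 6.

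The canonical repressors were all at a higher mean level in CMR cells, by much smaller folds. E2F4, the most abundant canonical repressor and the main E2F partner of RBL1 and RBL2, had 13.2, 14.4 and 13.1 FPKM in CMR libraries, against 10.5, 10.1 and 10.6 FPKM in CON libraries. The groups did not overlap. It rose by a log2 fold change of 0.46 ± 0.09 (SE; edgeR adjusted p = 0.0068), and the call held under all 14 alternative settings, at log2 fold changes from 0.33 to 0.49. E2F4 (ENSG00000205250) lies on the plus strand of chromosome 16, from 67192155 to 67198918.

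E2F6, which lacks a pocket protein binding domain and represses through polycomb proteins, had 10.6, 9.61 and 9.79 FPKM in CMR libraries, against 8.01, 8.95 and 8.61 FPKM in CON libraries. It rose by a log2 fold change of 0.31 ± 0.10 (SE; edgeR adjusted p = 0.0403). That call was lost without any 1 of the 6 libraries (edgeR adjusted p = 0.063 to 0.147), with the replicate number as a block (edgeR adjusted p = 0.0875) and with upper-quartile scaling (edgeR adjusted p = 0.202). The gene (ENSG00000169016) spans 11444375 to 11466177 of chromosome 2, on the minus strand.

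E2F5 (ENSG00000133740; plus strand of chromosome 8, 85177154 to 85214518), the other E2F that pairs with RBL1 and RBL2, had 3.23, 3.28 and 2.40 FPKM in CMR libraries and 2.24, 2.25 and 2.53 FPKM in CON libraries. CMR replicate 3 lay within the CON range in FPKM and just above it in CPM, at 17.9 against at most 17.7 CPM in CON libraries. Its log2 fold change was 0.42 with a 95% interval from 0.06 to 0.77 for this gene alone, and it was not called over all genes (edgeR adjusted p = 0.0671). Without CMR replicate 3 it was called, with a log2 change of 0.53 (edgeR adjusted p = 0.0206). The span of E2F5 overlaps that of C8orf59 on the other strand, a gene with 283% of its mean count, and the sources used here do not say whether counting used strand. C8orf59 itself was not called (log2 change 0.23, edgeR adjusted p = 0.119).

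Of the atypical repressors, which are close relatives, E2F8 fell and E2F7 was not called. E2F8 had the largest fold of the 10 members: 1.05, 1.27 and 0.717 FPKM in CMR libraries, against 8.05, 7.53 and 8.08 FPKM in CON libraries. It fell by 2.88 on the log2 scale (SE 0.21; edgeR adjusted p = 0.00015), and 0.88% of all tested genes had a value that low or lower. E2F7 had 7.13, 6.74 and 6.13 FPKM in CMR libraries, against 7.31, 7.60 and 7.98 FPKM in CON libraries. The groups stood just apart in FPKM and overlapped in CPM, and the log2 fold change was -0.12 with a 95% interval from -0.34 to 0.10 (edgeR adjusted p = 0.371). The intervals of E2F8 (-3.38 to -2.38) and E2F7 did not meet. The ratio of E2F8 to E2F7 in FPKM was 0.147, 0.188 and 0.117 in CMR libraries, against 1.10, 0.991 and 1.01 in CON libraries. E2F8 (ENSG00000129173) spans 19224063 to 19241620 on the minus strand of chromosome 11, and E2F7 (ENSG00000165891) spans 77021248 to 77065569 on the minus strand of chromosome 12.

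Of the pocket proteins described here, RBL1 fell and RBL2 was not called. RBL1 had 2.42, 2.64 and 1.85 FPKM in CMR libraries, against 8.28, 7.81 and 8.46 FPKM in CON libraries, with no overlap. Its log2 fold change was -1.75 ± 0.15 (SE; edgeR adjusted p = 0.000244). RBL2 had 3.92, 4.11 and 3.07 FPKM in CMR libraries and 5.31, 4.99 and 4.90 FPKM in CON libraries, also without overlap. Its log2 fold change of -0.38 ± 0.13 (SE) missed the threshold (edgeR adjusted p = 0.0555), and it passed under 6 of the 14 alternatives, DESeq2 among them (DESeq2 adjusted p = 0.025). The RBL2 span overlaps that of AKTIP on the other strand, which had 115% of its mean count and rose 2.01-fold (edgeR adjusted p = 0.00156); the part of AKTIP reads in the RBL2 count was not tested. RBL1 was below RBL2 in every CMR library and above it in every CON library, with an FPKM ratio of RBL1 to RBL2 of 0.62, 0.64 and 0.60 in CMR libraries and 1.56, 1.57 and 1.73 in CON libraries. RBL1 (ENSG00000080839) spans 36996349 to 37095995 of chromosome 20, on the minus strand, and RBL2 (ENSG00000103479) spans 53433977 to 53491648 of chromosome 16, on the plus strand.

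**Figure D3:**
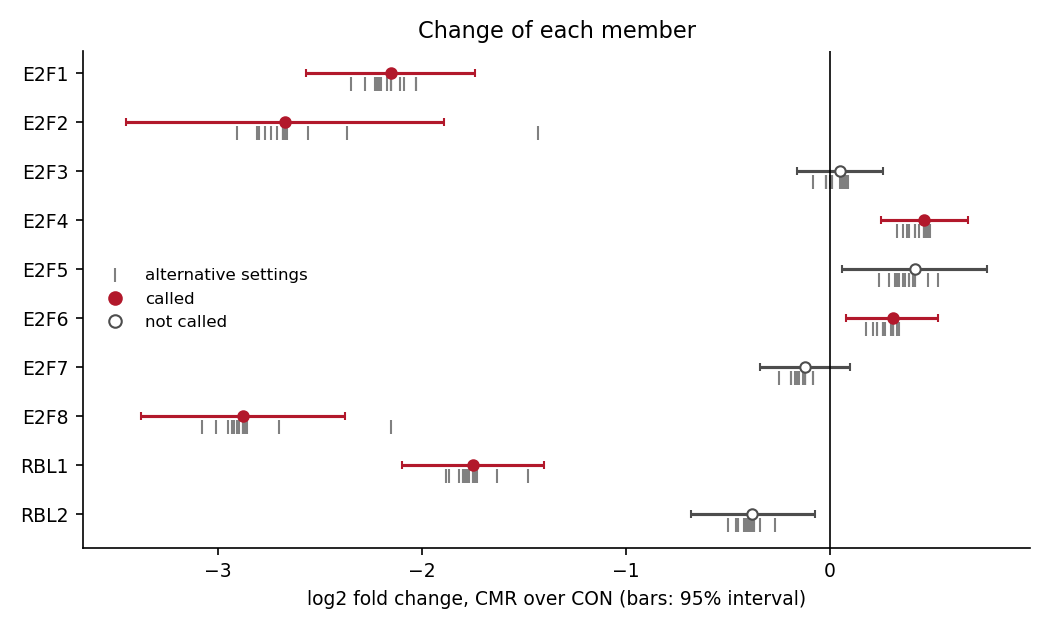
Log2 fold change (CMR over CON) of each member with its 95% interval; filled red points were called and open points were not, and grey ticks give the value under each of 14 alternative settings. E2F8, E2F2, E2F1 and RBL1 lie between -2.88 and -1.75, the canonical repressors between 0.31 and 0.46, and E2F3 and E2F7 near 0; the outlying ticks of E2F2 and E2F8 are from log2(FPKM + 1).

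Per gene length, the activators together were less abundant than the canonical repressors in every CMR library and more abundant in every CON library. The summed FPKM of E2F1, E2F2 and E2F3 was 19.5, 17.8 and 17.8 in CMR libraries, against 39.2, 38.6 and 36.9 in CON libraries. That of E2F4, E2F5 and E2F6 was 27.0, 27.2 and 25.3 in CMR libraries, against 20.7, 21.3 and 21.7 in CON libraries. Neither pair of ranges overlapped, and the ratio of the activator sum to the canonical repressor sum was 0.69 ± 0.0361 in CMR cells and 1.80 ± 0.0954 in CON cells (SD, n = 3 each). E2F7 and E2F8 together had 8.18, 8.01 and 6.84 FPKM in CMR libraries and 15.4, 15.1 and 16.1 FPKM in CON libraries, with E2F8 making up most of the difference.

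Over all 8 E2F genes the summed level was 52.6 ± 2.38 FPKM in CMR cells and 75.0 ± 0.305 FPKM in CON cells (SD, n = 3 each). Activators made up 35.7%, 33.6% and 35.7% of it in CMR libraries, against 52.1%, 51.4% and 49.4% in CON libraries. Canonical repressors made up 49.4%, 51.3% and 50.6% in CMR libraries, against 27.5%, 28.4% and 29.1% in CON libraries. Atypical repressors held 14.6% in CMR cells and 20.7% in CON cells. E2F1 alone made up 8.83% in CMR cells and 29.2% in CON cells. E2F4 made up 25.8% in CMR cells and 13.8% in CON cells, with the FPKM ratio of E2F1 to E2F4 at 0.45, 0.30 and 0.28 in CMR libraries against 2.26, 2.18 and 1.88 in CON libraries. The median log2 fold change was -2.15 over the 3 activators and 0.42 over the 3 canonical repressors, beside -0.01 over all tested genes; the classes are too small for these medians to say more than the single genes do.

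**Figure D4:**
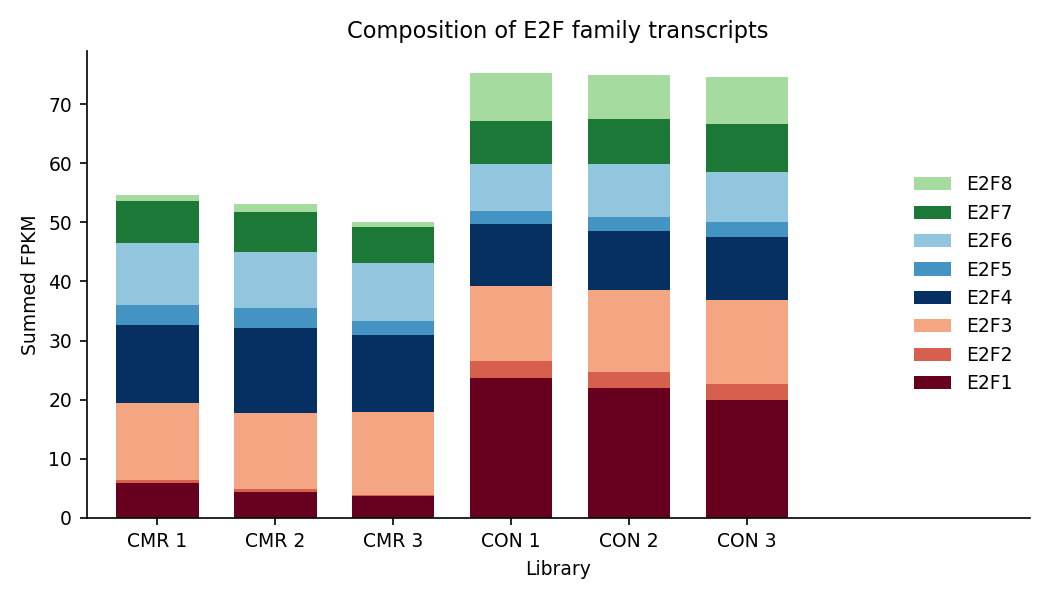
Summed FPKM of the 8 E2F genes in each library, CMR libraries left and CON libraries right, with activators in reds at the bottom, canonical repressors in blues and atypical repressors in greens. The total is 50.0 to 54.7 FPKM in CMR libraries and 74.7 to 75.3 FPKM in CON libraries, and the E2F1 and E2F8 segments are the ones that shrink most.

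The order of the members by level also differed. In CMR cells E2F4 and E2F3 led with overlapping ranges, at means of 13.6 and 13.3 FPKM, followed by E2F6, E2F7 and E2F1. The ranges of E2F1, RBL2, E2F5 and RBL1 each overlapped that of the next, and E2F8 and E2F2 were lowest, at 1.01 and 0.416 FPKM. In CON cells E2F1 led at 21.9 FPKM, above E2F3 at 13.5 and E2F4 at 10.4 FPKM, with no overlap between these neighbours. E2F6, RBL1, E2F8 and E2F7 followed between 8.52 and 7.63 FPKM, each overlapping the next, and RBL2, E2F2 and E2F5 were lowest. CMR replicate 3 had the lowest CPM of its group in 7 of the 10 members; the exceptions were E2F3, E2F4 and E2F6.

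E2Fs other than the atypical ones bind DNA as pairs with a DP protein. TFDP1, the main DP gene, had 21.2, 20.0 and 18.7 FPKM in CMR libraries, against 24.7, 33.2 and 42.4 FPKM in CON libraries, and fell by 0.67 on the log2 scale (edgeR adjusted p = 0.0261). TFDP2 fell by 0.46 (edgeR adjusted p = 0.0306), and TFDP3 had no count in any library. Both calls were sensitive to single libraries: for TFDP1 it was lost with the replicate number as a block (edgeR adjusted p = 0.0516) and without any 1 library other than CON replicate 1 (edgeR adjusted p = 0.0517 to 0.0779), and for TFDP2 it was lost without CMR replicate 2 or any 1 CON library (edgeR adjusted p = 0.0585 to 0.0975).

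The MuvB complex joins E2F4 and a pocket protein to form the repressive DREAM complex, and joins MYBL2 and FOXM1 to activate mitotic genes. Of 8 tested genes of this list, 5 fell and 1 rose, where 18.1% of all tested genes were called lower and 20.5% higher, and the median log2 fold change was -0.57. MYBL2 had 19.9, 18.2 and 11.1 FPKM in CMR libraries, against 82.96, 77.0 and 76.7 FPKM in CON libraries, a log2 fold change of -2.19 ± 0.20 (SE; edgeR adjusted p = 0.000319). Its relative MYBL1 fell 5.09-fold. FOXM1, the transcription factor of late-cycle genes, fell 2.16-fold (edgeR adjusted p = 0.0266), with CON replicate 3 close to the CMR libraries at 9.82 FPKM, against 21.6 and 19.2 FPKM in the other CON libraries; its call was lost without CMR replicate 2 or 3 or CON replicate 1 or 2 (edgeR adjusted p = 0.0761 to 0.0892), and its span overlaps those of RHNO1 and ITFG2.

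Among the shared MuvB subunits, RBBP4, a histone-binding protein, fell by 0.50 on the log2 scale (edgeR adjusted p = 0.00375). LIN9 fell 1.56-fold (edgeR adjusted p = 0.0195), a call lost with the replicate number as a block and without CMR replicate 3 or CON replicate 1 or 3 (edgeR adjusted p = 0.0551 to 0.0726). LIN37, another core subunit, rose 4.71-fold, with 5.24, 6.15 and 7.80 FPKM in CMR libraries against 0.898, 1.43 and 1.91 FPKM in CON libraries (edgeR adjusted p = 0.00132). Its span overlaps unnamed entries on the same strand and on the other, with 12.4% and 14.1% of its mean count. LIN54, the DNA-binding subunit, whose span overlaps that of THAP9, was not called (log2 change 0.26, edgeR adjusted p = 0.346), nor was LIN52 (0.57, edgeR adjusted p = 0.452). MYB was counted in CON replicates 1 and 3 only and was not tested.

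Cyclins and kinases that phosphorylate pocket proteins fell in 7 of 12 tested genes and rose in 1, beside 18.1% lower and 20.5% higher over all tested genes, with a median log2 fold change of -0.91. CCND1, cyclin D1, had 22.3, 21.9 and 15.4 FPKM in CMR libraries, against 73.4, 76.0 and 77.6 FPKM in CON libraries, and fell 3.61-fold (edgeR adjusted p = 0.000159). CCNE2, a cyclin of the G1 to S transition whose span overlaps those of NDUFAF6 and the more abundant INTS8, fell 4.97-fold, CCNA2, which overlaps EXOSC9, 3.35-fold and CDK1 3.82-fold. The 1 that rose, named after its values were seen, was CCND2, at 0.830 FPKM in CMR cells and 0.0719 FPKM in CON cells. Of 5 tested kinase inhibitor genes, CDKN1B, which binds cyclin E and A complexes, rose 1.94-fold (edgeR adjusted p = 0.000699), and CDKN2C, which binds the cyclin D kinases and is a known E2F target, fell 3.37-fold (edgeR adjusted p = 0.000171); the other 3 were not called, and 1 of 5 in each direction is close to the 20.5% higher and 18.1% lower over all tested genes.

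Genes listed as partners of E2F6 and of the polycomb complex that contains it were called higher in 3 of 13 and lower in 4. Their median log2 fold change was 0.24. Over all tested genes 20.5% were called higher and 18.1% lower, so the count higher is near the background. MAX, the partner of MGA in that complex, rose by 2.14 on the log2 scale (edgeR adjusted p = 8.19e-05); its span overlaps that of FNTB. It had 11.9, 13.9 and 15.6 FPKM in CMR libraries against 3.22, 3.44 and 3.24 FPKM in CON libraries. RING1, a ubiquitin ligase, and L3MBTL2 rose by log2 fold changes of 0.85 and 0.68. HDAC1, a histone deacetylase also recruited by pocket proteins, fell 2.05-fold, CBX3, which overlaps the more abundant HNRNPA2B1, 1.89-fold, WDR5 1.54-fold, and HDAC2 by 0.26 on the log2 scale. The HDAC2 call was lost with no filter, with the block and without any 1 library other than CMR replicate 3 (edgeR adjusted p = 0.0533 to 0.148).

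Of 12 co-repressors and co-activators, 4 rose and 3 fell, with a median of 0.25, where 20.5% of all tested genes were called higher and 18.1% lower. The count lower is near that background and includes HDAC1, which was also counted among the listed partners of E2F6 and its complex. SIN3A, a scaffold of deacetylase complexes, rose 1.49-fold and EP300, an acetyltransferase, 1.35-fold, while KAT2A, another acetyltransferase, fell 2.88-fold (edgeR adjusted p = 0.000312). ARID4A and SIN3B were also called higher. The ARID4A call was lost without CMR replicate 2 or 3 or CON replicate 1 or 2 (edgeR adjusted p = 0.077 to 0.0839). The SIN3B call was lost without CMR replicate 2 or 3 or CON replicate 1 or 3 and with upper-quartile scaling (edgeR adjusted p = 0.0548 to 0.0871). TRRAP, whose span overlaps that of SMURF1, was called lower, a call lost with DESeq2 (DESeq2 adjusted p = 0.0549), and with no filter, the replicate block (edgeR adjusted p = 0.0782) and without any 1 library other than CMR replicate 1 (edgeR adjusted p = 0.0567 to 0.162). Of 9 genes for turnover of E2Fs and pocket proteins, 3 rose and 4 fell, with a median of -0.09, beside 20.5% higher and 18.1% lower over all tested genes. CCNF, cyclin F, whose ubiquitin ligase is known to degrade activator and atypical E2Fs, fell 3.57-fold and SKP2, an F-box protein, 3.04-fold. USP11, a deubiquitinase, rose 1.79-fold. CDC20 and CKS1B fell. UCHL5, whose span overlaps that of RO60, was called higher, a call lost with the replicate block and without any 1 library other than CMR replicate 1 (edgeR adjusted p = 0.0592 to 0.0895). SKP1 was called higher too (edgeR adjusted p = 0.0399), and of 14 alternatives only DESeq2 kept that call, the others giving adjusted p = 0.0502 to 0.216.

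Textbook target genes of E2F fell in 39 of 45 tested genes and rose in 1, against 18.1% of all tested genes lower and 20.5% higher, with a median log2 fold change of -1.23. They summed to 509, 503 and 458 FPKM in CMR libraries, against 1110, 1152 and 1088 FPKM in CON libraries. Called lower by at least 2-fold, a cut not set in advance, were 27 of them. For scale, RRM1 had a log2 fold change of -1.0. Among all tested genes, called or not, 13.68% had a value that low or lower. CCNE1, CCNE2 and CCNA2, all called lower, are counted both here and among the cyclins and kinases above. UHRF1, which maintains DNA methylation, MCM10, a replication initiation factor, CCNE2 and GINS2, a subunit of the replicative helicase complex whose span overlaps GSE1, had the largest falls among targets averaging at least 1 FPKM, of 8.06-fold, 6.04-fold, 4.97-fold and 4.18-fold. CDC6, a licensing factor, was the 1 that rose, 1.25-fold (edgeR adjusted p = 0.0468). That call was lost under 12 of 14 alternatives, including each left-out library (edgeR adjusted p = 0.0507 to 0.154). In the RefSeq windows the E2F consensus was present in 21 of 38 matched targets (55.3%), against 3.99% of all 27305 genes with a window. The list holds genes already known as E2F targets, for which such letters are part of the evidence, so this share is a description only.

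Of 10 tested E2F1 targets outside the cell cycle, mostly genes of cell death, 2 rose, 1 fell and 7 were not called, with a median of 0.17. That is no more than the 20.5% higher and 18.1% lower over all tested genes. PMAIP1, which encodes the BH3-only protein NOXA, had 12.2, 13.5 and 11.2 FPKM in CMR libraries against 5.32, 6.23 and 1.38 FPKM in CON libraries, and rose 3.02-fold (edgeR adjusted p = 0.0358), a call lost without any 1 CMR library or CON replicate 1 (edgeR adjusted p = 0.0683 to 0.0938). MAP3K5, a stress kinase, fell 1.81-fold. APAF1, the apoptosome scaffold, was not called (log2 change 0.07, edgeR adjusted p = 0.723) and is given here after its values were seen.

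**Figure D5:**
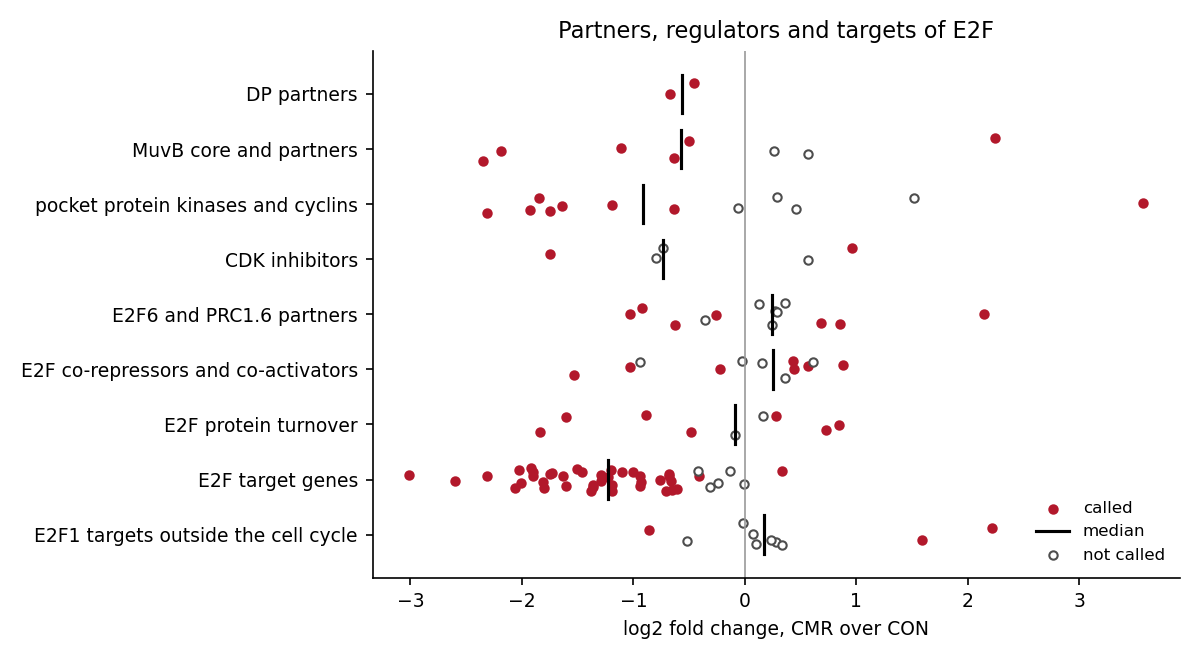
Log2 fold change (CMR over CON) of every tested gene in 9 lists of partners, regulators and targets of E2F; filled red points were called, open points were not, and black bars are list medians. The E2F target list lies almost wholly left of 0, with a median of -1.23, while the lists of E2F6 partners and of E2F1 targets outside the cell cycle have medians of 0.24 and 0.17.

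Genes with the most similar course over the 6 libraries were found by the root mean square difference of log2 CPM, after subtracting each gene's mean, among 11674 tested genes averaging 1 FPKM or more. Nearest to E2F1 were HAS2, a hyaluronan synthase gene (0.090), ELFN1 (0.097) and KRT80, a keratin gene (0.098), where the median over all genes was 1.14. Nearest to E2F8 were SMAD6, an inhibitory SMAD (0.094), EPHA7, an ephrin receptor (0.145) and SH3PXD2B (0.184), with a median of 1.51 over all genes. From E2F8, E2F2 stood at rank 12 (0.245), E2F1 at rank 76 and RBL1 at rank 174. From E2F1, the ranks were 146 for RBL1, 364 for E2F2 and 406 for E2F8. Nearest to RBL1 were DNA2, a helicase-nuclease of DNA replication (0.066), TRERF1 (0.070) and RTKN2 (0.074), with a median of 0.94 over all genes. Nearest to RBL2 were ULK2, an autophagy kinase (0.038), DHRSX (0.040), whose span overlaps that of ZBED1, and PTPRK, a receptor phosphatase (0.052). The median for RBL2 was 0.39 over all genes.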

How the data were processed

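Poly(A) RNA of 3 CMR and 3 CON libraries of PANC-1 cells was measured by paired-end sequencing, per the labels' protocols, which also name an adipose source that does not match the other labels. The count values deposited by the authors are whole numbers per gene without normalization, per the file headers. The FPKM columns are also as deposited by the authors, corrected for gene length and depth. Per the submitters' processing notes, the tools included HISAT2 2.0, StringTie 1.3.0 and Bowtie 0.12.2, and the build named is mouse mm8. The identifiers are human, and 81.2% of 58552 identifiers in GENCODE release 29 have the same span there, so GRCh38 was taken for all spans. Of the 10 members, 3 have exactly that span and 7 differ at an end, by up to 2640 bases (E2F5), and all 10 overlap their GENCODE gene on the same strand. Spans are printed as the table gives them.

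Counts were tested with edgeR 4.0.16 in R 4.3.3 (TMM scaling, filterByExpr with minimum count 10 and minimum total 15, quasi-likelihood test, Benjamini-Hochberg adjustment over 19200 genes, threshold 0.05). The procedure was run on simulated data with few changed genes, balanced directions and a constant dispersion. Such data cannot show how it performs where 38.6% of genes are called, as here. Intervals are 95% for single genes, from the SE and the test's degrees of freedom, not adjusted over genes. Alternatives were DESeq2 1.42.0, other scalings and filters, limma 3.58.1 on log2(FPKM + 1) and log2(FPKM + 0.1) for genes averaging 1 FPKM or more, the replicate number as a block, and leaving out each library. The members and lists were chosen with earlier results of these data known, so list counts and medians are descriptions. Named were all members, all DP and MuvB genes with a count, up to 4 called genes per direction in the other lists averaging 1 FPKM or more, and the 3 genes most like E2F1, E2F8, RBL1 and RBL2. A span overlap is stated where the other gene had at least 10% of the mean count. Figures were drawn with matplotlib 3.10.9.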

Additional observations from a re-analysis of the deposited data

How the results depend on the processing

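The falls of E2F1, E2F2, E2F8 and RBL1 and the rise of E2F4 kept direction and call under all 14 alternatives. E2F2 and E2F8 fell by 1.43 and 2.15 with log2(FPKM + 1), a scale that understates changes of low genes. The count of members called higher was 1 with upper-quartile scaling, library totals, no filter, either FPKM fit or the replicate block, and 1 to 2 leaving out single libraries. The E2F6 log2 fold change lost its call at 0.18 with upper-quartile scaling, 0.23 with library totals or log2(FPKM + 0.1), 0.21 with log2(FPKM + 1), 0.31 with no filter or the replicate block, and 0.26 to 0.34 leaving out single libraries. E2F5 gained one at 0.42 with DESeq2 and ran from 0.33 to 0.53 leaving out single libraries. RBL2 gained one at -0.38 with DESeq2, -0.50 with upper-quartile scaling, -0.45 with library totals or log2(FPKM + 0.1), -0.42 among genes averaging 1 FPKM or more and -0.37 with log2(FPKM + 1). E2F3, never called, turned to -0.08 with upper-quartile scaling and -0.02 with library totals and both FPKM fits. Upper-quartile scaling put the median of all genes at -0.14, against -0.01 with TMM. The cause of these shifts was not tested. Same-numbered libraries deviated together with r of 0.03 to 0.05, each library correlating best with its own number, which is a hint from the data only; the numbers were not taken as pairs, and the block called 5 members. E2F targets called lower numbered 36 to 41 under every alternative. Of 51 called genes named outside the members, 14 lost their call under at least 1 alternative and 0 reversed. Counting motif letters on 1 strand gave 1.80% of windows for the consensus. With 3 libraries per group the spread between libraries limits the smaller changes; among the members only E2F2 had a count below 100 in a library.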
